A study of Mus musculus with 8 samples.

Results

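The G2 and mitosis genes are 36 genes that act between the end of DNA synthesis and the separation of daughter cells. Every array probe whose systematic name was a RefSeq transcript of one of them was taken, which gave 49 of the 55681 probes on the array. Of the 36 genes, 35 had a probe with Cy5 well above background, by the scanner software's own call, on at least 4 arrays and were tested among 23343 genes and transcripts. The exception was Aurkb (NM_011496), the kinase of the chromosomal passenger complex, whose 1 probe was not well above background on any array.

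The samples were ureteric bud cells, the epithelial cells of the branching tube that forms the collecting ducts, taken as GFP-positive cells by flow sorting from kidneys of C57BL/6 mice at postnatal day 0. There were 4 wild-type (WT) samples and 4 DOT1-null (KO) samples, in which Dot1 had been removed from Hoxb7-positive cells. Both groups shared the strain, the age and the GFP sort. The sources used here do not say what drove GFP or the recombinase, nor how many animals went into a sample, and p-values cover only the variation among these 8 samples, part of which may be technical. Each sample was labelled with Cy5 and hybridised against the RNA of WT replicate 3 in Cy3, and a value is the log2 ratio of Cy5 to Cy3, so that levels are compared between arrays for 1 gene and never between genes.

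Cells enter mitosis when cyclin B and Cdk1 form an active kinase, and they leave it when the anaphase-promoting complex marks cyclins and securin for destruction. Most of the genes for this machinery are transcribed together in G2. In resting cells the DREAM complex holds them silent through a short promoter element, the cell cycle genes homology region (CHR). In G2, B-Myb (Mybl2) and then Foxm1 act through the same element, while NF-Y binds CCAAT boxes nearby. In the growing ureteric bud, cells divide chiefly at the branching tips. In cells sorted in bulk, fewer dividing cells and less of an RNA per dividing cell cannot be told apart.

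Promoter sequences from RefSeq (GRCm38.p6) were in hand for 30 of the 36 genes, with 32 start sites. A CHR, searched as TTTGAA or TTCGAA on both strands from 250 bases before to 50 bases after the start, occurred in 27 of the 32 promoters (84.4%). The same letters occurred in 17.5% of 40 promoters of DNA replication and S phase genes and in 14.3% of the 15172 promoters of genes tested on the arrays. CCAAT, on both strands, occurred in 26 of 32 (81.2%), against 57.5% and 37.2%. Both together occurred in 24 of 32 (75%), against 12.5% and 5.71%. The stretches below run from 150 bases before to 30 bases after the start, in the direction of transcription, and capitals mark TTTGAA and CCAAT or their reverse complements TTCAAA and ATTGG. Cdk1 and Ccnb2 are shown as the entry kinase and a partner cyclin, Cdca8 and Ube2c as genes with differences below -0.30 between overlapping groups, Mki67 as a gene with a difference near 0, and Cenpe as the gene with the highest difference.
Ccnb2, chr9:70421525-70421704 (minus strand): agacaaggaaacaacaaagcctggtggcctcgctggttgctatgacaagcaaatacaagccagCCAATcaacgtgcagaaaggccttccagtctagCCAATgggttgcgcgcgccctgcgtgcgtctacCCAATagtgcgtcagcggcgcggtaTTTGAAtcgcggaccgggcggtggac
Cdk1, chr10:69352883-69353062 (minus strand): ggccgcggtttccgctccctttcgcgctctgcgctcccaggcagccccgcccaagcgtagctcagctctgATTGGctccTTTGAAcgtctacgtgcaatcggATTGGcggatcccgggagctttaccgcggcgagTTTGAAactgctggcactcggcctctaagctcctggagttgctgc
Cdca8, chr4:124936888-124937067 (minus strand): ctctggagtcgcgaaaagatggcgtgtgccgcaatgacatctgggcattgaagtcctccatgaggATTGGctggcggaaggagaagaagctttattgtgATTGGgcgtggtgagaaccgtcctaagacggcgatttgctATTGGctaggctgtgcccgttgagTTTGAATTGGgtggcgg
Ube2c, chr2:164769779-164769958 (plus strand): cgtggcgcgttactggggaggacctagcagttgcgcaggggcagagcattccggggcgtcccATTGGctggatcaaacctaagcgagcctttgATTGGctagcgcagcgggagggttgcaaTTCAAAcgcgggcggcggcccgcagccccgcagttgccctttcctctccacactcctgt
Mki67, chr7:135716350-135716529 (minus strand): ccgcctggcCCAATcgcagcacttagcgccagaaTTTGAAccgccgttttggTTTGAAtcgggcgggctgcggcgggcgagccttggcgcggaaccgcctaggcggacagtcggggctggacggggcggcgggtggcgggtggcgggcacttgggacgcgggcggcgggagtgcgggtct
Cenpe, chr3:135212413-135212592 (plus strand): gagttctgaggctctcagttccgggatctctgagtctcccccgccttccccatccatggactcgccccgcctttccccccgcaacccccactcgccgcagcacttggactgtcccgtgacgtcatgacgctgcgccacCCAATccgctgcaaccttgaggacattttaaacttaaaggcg
In Cdca8 the TTTGAA shares its last base with an ATTGG. Cenpe was 1 of 5 genes with a promoter in hand and neither CHR spelling in the window, with Ccnb1, Birc5, Nuf2 and Nusap1. A match of letters is a description of the sequence and not a binding site.

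The KO arrays differed in how many genes lay far from WT. Of 21215 genes with values on every array, KO 1 had 916 that differed from the mean of the WT arrays by over 2-fold. KO 3 had 504, KO 4 had 1029 and KO 2 had 81, while single WT arrays had 78 to 136 against the mean of the remaining WT arrays. By this count KO 2 lay within the WT range. The count covers large differences only, and single genes on KO 2 could still lie outside the WT values, as Mybl2 did (below). KO 3 had 7665 spots that the scanner software had marked, where the other arrays had 175 to 216, and a median Cy5 intensity of 636, against 93.5 to 137. The slide held the KO arrays in row 1 and the WT arrays in row 2, and row and genotype cannot be told apart. Dot1l itself read 0.03, -0.05, -0.11 and 0.07 on WT 1 to WT 4 and 0.35, 0.03, -0.04 and 0.30 on KO 1 to KO 4. Its groups overlapped, and the log2 difference of 0.18 does not check the labels, because the sources used here do not place its probe inside or outside the deleted part. It was -0.18 with the arrays centred on their medians in place of loess, a setting named median centring below, which moved the median difference of all genes to -0.30. All 21 ureteric bud and collecting duct markers were well above background on all 8 arrays, and so were markers of other kidney cells, with 9 of 9 nephron progenitor and 8 of 8 endothelial markers tested.

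Mitotic genes lay mostly lower in KO, by small amounts, and no single gene passed the test. Of the 35 genes, 28 had a log2 difference (KO minus WT) below 0, and the median was -0.23, where 54.1% of all genes tested were below 0 with a median of -0.02. Kif11 had the lowest difference, -0.45, a 1.36-fold lower level, and Cenpe the highest, 0.31 (-0.15 with median centring). With limma, a linear model that shares its estimate of the spread across genes, and Benjamini-Hochberg adjustment over all genes tested, 0 of 35 passed 0.05 in either direction, against 0.00857% of all genes called lower and 0% called higher. The lowest adjusted p was 0.114, for Foxm1. At an unadjusted p under 0.05, 12 of 35 were lower and 0 higher, against 13.6% lower and 10.4% higher among all genes. Without WT 4, 4 were lower and 1 (Cenpe) higher, against 11.3% and 8.01% of all genes. Without KO 4, 5 were lower and 0 higher, against 9.61% and 6.34%, and without KO 3, 7 were lower and 0 higher, against 10.5% of all genes lower and 2491 of 23343 higher.

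Over the 32 genes with values on every array, the KO and WT values did not overlap for 5, all lower in KO, against 7.64% of all genes lower and 3.85% higher. These were Bub1b, Ttk, Nuf2, Cdca3 and Foxm1. The number was 12 without WT 3, against 9.9% of all genes lower and 5.94% higher, and 10 without KO 1, against 9.75% and 4.5%. It was 9 without KO 2, where the shares over all genes were 19.3% and 14.3%. In each case 0 mitotic genes were higher. Without KO 2, limma called 5 of 35 lower (Ccna2, Bub1b, Cdca8, Kif2c and Foxm1) and 0 higher, against 11.2% of all genes called lower and 10% higher in the same fit. Without both KO 2 and KO 3 it called 0 of 35, against 10.1% lower and 13.5% higher, and the lowest adjusted p was 0.0624.

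**Figure D1:**
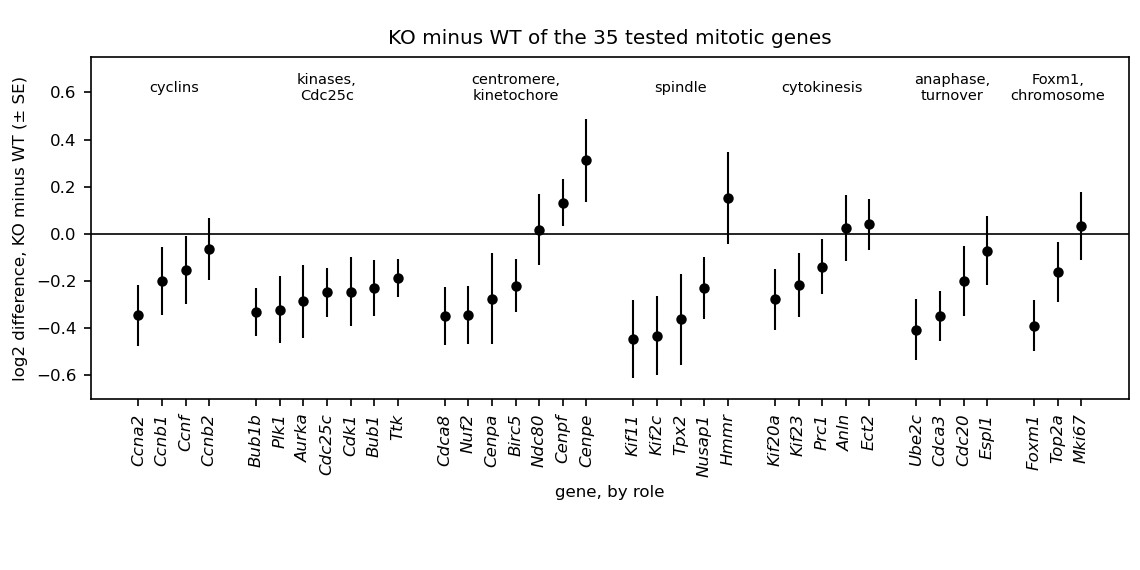
Log2 difference between KO and WT (vertical axis) of the 35 tested mitotic genes, grouped by role along the horizontal axis. Points are limma estimates and bars 1 standard error on each side. Of the 35 points, 28 lie below 0, with Kif11 lowest at -0.45 and Cenpe highest at 0.31 (-0.15 with median centring).

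The 4 cyclins all lay below 0, with a median of -0.18, and 1 of 4 had an unadjusted p under 0.05. At that p 13.6% of all genes were lower and 10.4% higher, the shares to set beside the count of each role below. Ccna2, the cyclin of S phase and G2, read 0.53, 0.50, 0.565 and 0.78 on WT 1 to WT 4 and 0.40, 0.51, 0.09 and 0 on KO 1 to KO 4. KO 2 lay among the WT arrays, and KO 1, KO 3 and KO 4 below all of them, KO 3 and KO 4 farthest. Its log2 difference was -0.35 ± 0.13 (SE, n = 4 per group; adjusted p = 0.157), and without KO 2 it was -0.43 (adjusted p = 0.0348, with a range of 0.0348 to 0.34 over the 22 alternatives).

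Ccnb1, the main partner of Cdk1 at entry into mitosis, read -0.11, -0.27, -0.10 and 0.21 in WT and -0.0068, -0.29, -0.58 and -0.18 in KO. The groups overlapped, with KO 3 lowest and WT 4 highest, at a difference of -0.20 ± 0.14 (adjusted p = 0.416), or -0.095 without WT 4. The other tested probes of Ccnb1 gave -0.35 and -0.33. Ccnb2, another B-type cyclin, read 0.18, -0.02, -0.19 and 0.28 in WT and 0.21, 0.07, -0.22 and -0.06 in KO, so that each group spanned nearly the whole range of the other, and its difference was -0.07 ± 0.13 (adjusted p = 0.791), with a difference of 0.0076 without WT 4 and 0.0093 without KO 3. Ccnf, an F-box protein that resembles cyclins, had -0.15 ± 0.14, or -0.055 without WT 4.

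All 7 tested genes among the mitotic kinases and the Cdk1 phosphatase lay below 0, with a median of -0.25, and 4 of 7 had an unadjusted p under 0.05. Cdk1, the kinase that drives entry into mitosis, read -0.19, -0.07, -0.38 and 0.21 in WT and -0.05, -0.49, -0.49 and -0.38 in KO. KO 1 lay above 3 of the WT arrays, and the other KO arrays below all 4. The difference was -0.25 ± 0.15 (adjusted p = 0.330), and another tested probe gave -0.13. Cdc25c, the phosphatase that activates Cdk1, read 0.16, 0.06, 0.125 and 0.27 in WT and 0.06, -0.10 and -0.24 on KO 1, KO 2 and KO 4, with the spot on KO 3 marked by the scanner and left out. Its difference over the remaining 7 arrays was -0.25 ± 0.10 (adjusted p = 0.194).

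The checkpoint kinases Bub1b and Ttk, which hold anaphase until chromosomes are attached, had KO values wholly below the WT values. Bub1b read 0.25, 0.28, 0.15 and 0.42 in WT and 0.01, 0.10, -0.27 and -0.07 in KO, a difference of -0.33 ± 0.10 (adjusted p = 0.125; 0.0306 without KO 2, with a range of 0.0306 to 0.306 over the alternatives). Ttk read 0.12, -0.01, 0.01 and 0.18 in WT and -0.19, -0.06, -0.14 and -0.07 in KO. The gap between its groups was narrow, with WT 2 at -0.01 and KO 2 at -0.06, and the difference was -0.19 ± 0.08 (adjusted p = 0.201). The remaining kinases were Plk1 at -0.32 ± 0.14, Aurka, which matures the spindle poles, at -0.29 ± 0.15, and Bub1 at -0.23 ± 0.12.

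The centromere, kinetochore and passenger genes were divided, with 4 of 7 below 0, a median of -0.22 and 2 with an unadjusted p under 0.05. Cdca8 (borealin), a passenger complex subunit that works with Aurkb, read -0.10, -0.14, -0.27 and 0.18 in WT and -0.38, -0.21, -0.54 and -0.59 in KO. KO 2 overlapped WT 3, and the difference was -0.35 ± 0.12 (adjusted p = 0.145; 0.0373 without KO 2, with a range of 0.0373 to 0.317). Its other probe also gave -0.35. Nuf2, a subunit of the complex that ties kinetochores to microtubules, read 0.17, 0.19, 0.21 and 0.46 in WT and 0.08, 0.05, -0.40 and -0.07 in KO. Its groups did not overlap, with a difference of -0.34 ± 0.12 (adjusted p = 0.149) and -0.20 at its other probe. Ndc80, its direct partner in that complex, had 0.02 ± 0.15, with KO 3 at 0.46 and the other KO arrays between -0.12 and -0.04, and -0.11 without KO 3.

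Cenpe, the kinesin that moves chromosomes to the spindle equator, lay on the other side of 0. It read -0.04, 0.12, -0.18 and 0.46 in WT and 0.75, 0.02, 0.42 and 0.42 in KO. KO 2 lay inside the WT range and WT 4 above 3 of the KO arrays, and the difference was 0.31 ± 0.17 (adjusted p = 0.302), or -0.15 with median centring. Birc5 (survivin), another passenger subunit, had -0.22 ± 0.11 at its brightest probe and -0.52 and -0.43 at the others. Cenpa, the histone variant that marks the centromere, had -0.27 ± 0.19 (-0.11 without WT 4), and Cenpf 0.13 ± 0.10, or -0.09 from Cy5 alone with quantile normalisation.

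The spindle genes had a median of -0.36, with 4 of 5 below 0 and 2 of 5 with an unadjusted p under 0.05. Kif11 (Eg5), the kinesin that pushes the spindle poles apart, read 0.69, 0.68, 0.53 and 0.94 in WT and 0.65, 0.43, -0.0019 and -0.03 in KO. KO 1 lay among the WT arrays, and the other KO arrays lay below all 4, at a difference of -0.45 ± 0.16 (adjusted p = 0.153). Kif2c, which shortens microtubules at the centromere, read 0.36, 0.24, -0.05 and 0.63 in WT and -0.13, 0.23, -0.30 and -0.35 in KO. Here KO 2 lay above WT 3 and the other KO arrays below it. The difference was -0.43 ± 0.17 (adjusted p = 0.164; 0.0329 without KO 2, with a range of 0.0329 to 0.345), and -0.25 at its other probe.

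Hmmr, a spindle and hyaluronan-binding protein, read 0.72, 0.50, 0.47 and 1.00 in WT and 0.98, 0.59, 0.44 and 1.30 in KO. KO 4 was highest and KO 3 lowest of all arrays, at a difference of 0.15 ± 0.20 (adjusted p = 0.659), or -0.16 with median centring. Tpx2, which activates Aurka on the spindle, had -0.36 ± 0.19 and, at its other probe, -0.19. Nusap1, a microtubule bundling protein, had -0.23 ± 0.13. Both were fitted without KO 3, where their spots were marked.

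The cytokinesis genes had a median of -0.14, with 3 of 5 below 0 and 0 of 5 with an unadjusted p under 0.05. Kif20a, a kinesin of the midzone, read -0.04, -0.20, -0.23 and 0.01 in WT and -0.14, -0.25, -0.47 and -0.71 in KO. KO 1 overlapped the WT arrays and KO 4 was lowest, at a difference of -0.28 ± 0.13 (adjusted p = 0.227). Kif23, a motor of the midbody, read 0.53, 0.42, 0.07 and 0.69 in WT and 0.39, 0.21, 0.10 and 0.16 in KO. WT 3 was the lowest of the 8 arrays, and the difference was -0.22 ± 0.13 (adjusted p = 0.350). Ect2, the exchange factor that starts furrowing, read -0.21, -0.25, -0.20 and -0.02 in WT and 0.09, -0.14, -0.35 and -0.12 in KO, with a difference of 0.04 ± 0.11 (adjusted p = 0.842), or -0.29 with median centring. Anln, an actin-binding scaffold, had 0.03 ± 0.14 (-0.31 with median centring), and Prc1, which bundles midzone microtubules, -0.14 ± 0.12, or -0.042 without WT 4.

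All 4 genes of anaphase and protein turnover lay below 0, with a median of -0.27. Ube2c, the ubiquitin-conjugating enzyme of the anaphase-promoting complex, read 0.90, 0.68, 0.55 and 1.05 in WT and 0.55, 0.50, 0.23 and 0.28 in KO. KO 1 and WT 3 touched, at 0.5494 and 0.5482, and the difference was -0.41 ± 0.13 (adjusted p = 0.126), with -0.37 at its other probe. Cdca3, an adaptor for protein destruction at mitotic entry, read 0.06, 0.08, 0.01 and 0.09 in WT and -0.0053, -0.32, -0.41 and -0.41 in KO. Its WT values lay closer together than its KO values, with SDs of 0.04 and 0.19, and its difference was -0.35 ± 0.10 (adjusted p = 0.121). Espl1 (separase), which cuts cohesin, read 0.45, 0.54, 0.07 and 0.71 in WT and 0.53, 0.53, 0.18 and 0.25 in KO, with a difference of -0.07 ± 0.15 (adjusted p = 0.798), or 0.02 without WT 4. Cdc20, the activator of the complex at anaphase, had -0.20 ± 0.15, or -0.061 without WT 4.

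Foxm1, the transcription factor of late mitotic genes, had the smallest p of the 35. Its brightest probe read 0.38, 0.27, 0.25 and 0.54 in WT and 0.19, -0.05, -0.08 and -0.18 in KO, a difference of -0.39 ± 0.11 (adjusted p = 0.114; 0.0489 without KO 2, with a range of 0.0489 to 0.298). The groups did not overlap at that probe. The other Foxm1 probe, for the same transcript, read 0.07, 0.19, 0.08 and 0.42 in WT and 0.28, 0.25, 0.16 and -0.06 in KO, where the groups overlapped and the difference was -0.03 ± 0.11 (adjusted p = 0.879 in the fit over probes).

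Mki67, a protein that coats mitotic chromosomes and is the usual marker of dividing cells, read 0.07, 0.32, -0.10 and 0.52 in WT and 0.39, 0.02, 0.26 and 0.29 in KO. The KO values lay inside the WT range, at a difference of 0.03 ± 0.14 (adjusted p = 0.905), or -0.54 with median centring, and its other probe gave 0.16 ± 0.14. Top2a, the topoisomerase that untangles chromosomes, read 0.11, 0.20, -0.19 and 0.22 in WT and 0.13, -0.22, -0.25 and 0.04 in KO, a difference of -0.16 ± 0.13 (adjusted p = 0.463).

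**Figure D2:**
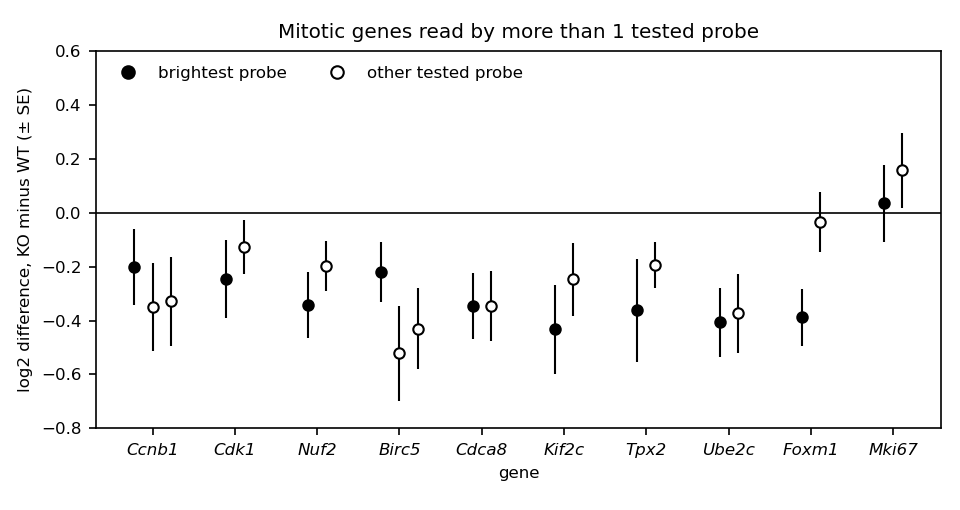
Log2 difference between KO and WT (vertical axis, bars 1 standard error on each side) of the 10 mitotic genes with more than 1 tested probe (horizontal axis), with the brightest probe filled and the others open. Cdca8 gave -0.35 at both of its probes, while Foxm1 gave -0.39 and -0.03.

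Of the 10 genes with more than 1 tested probe, the probes lay on the same side of 0 in every gene, and over all 47 tested probes 39 had a difference below 0. The spread between probes of 1 gene reached 0.35 for Foxm1 and 0.30 for Birc5, larger than the median size of a difference among the 35 genes, which was 0.23.

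The WT arrays also differed among themselves in these genes. WT 4 gave the highest of the 4 WT values for 35 of 35 genes and for 46 of 47 tested probes, the exception being the dimmer probe of Tpx2. WT 3 gave the lowest for 25 of 35. Over all genes tested, WT 4 was highest in 25.8% and WT 3 lowest in 26%. The median over genes was 0.10, 0.10, -0.06 and 0.37 on WT 1 to WT 4 and 0.09, -0.04, -0.24 and -0.07 on KO 1 to KO 4, taken over the 32 genes with values on every array. The medians of KO 1 and KO 2 lay inside the range of the WT medians, and those of KO 3 and KO 4 below it.

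**Figure D3:**
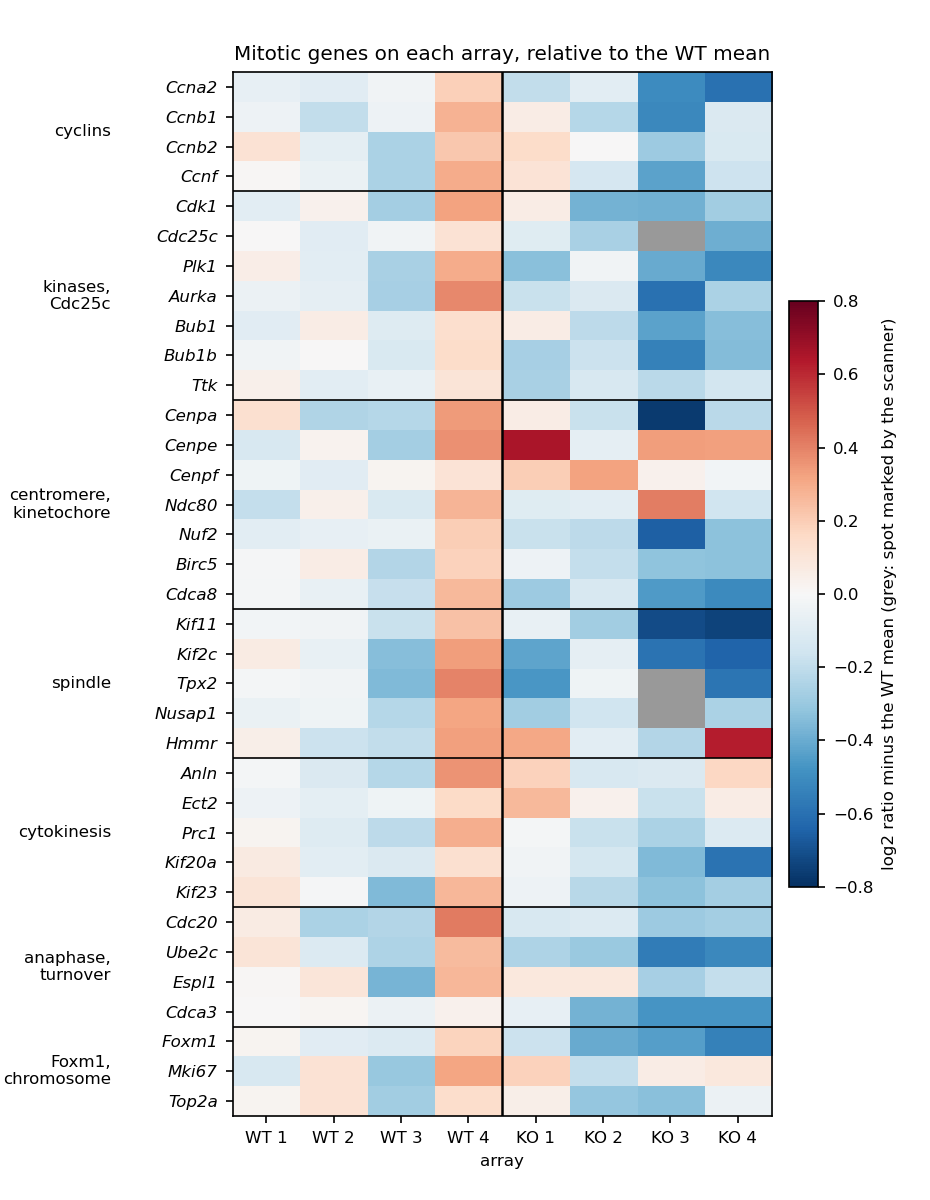
Log2 ratio of each tested mitotic gene (rows, by role) on each array (columns), less the mean of its 4 WT values; red is higher and blue lower, and grey marks spots left out. The WT 4 column is above 0 for 35 of 35 genes, and KO 3 and KO 4 hold most of the darkest blue cells.

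The range over the 4 WT values had a median of 0.476, and that over the 4 KO values 0.437, against a median size of the KO difference of 0.23. WT 4 lay above WT 3 by a median of 0.46. For 25 of 32 genes the difference between groups was smaller than the range within WT. A range runs from the lowest to the highest value, while the difference is between means, and no such share over all genes is at hand. Set against the mean of the other WT arrays, mitotic genes differed by a median of 0.0623 on WT 1, 0.109 on WT 2, 0.29 on WT 3 and 0.35 on WT 4. Against the mean of all WT arrays, KO 1 and KO 2 lay at a distance of 0.158 and 0.155, and KO 3 and KO 4 at 0.394 and 0.275. KO 1 and KO 2 thus lay farther out than WT 1 and WT 2 and nearer than WT 3 and WT 4. KO 1 did so although 4.32% of all genes on it lay more than 2-fold from WT, against 0.382% on KO 2.

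The KO arrays were not alike either. KO 1 had values below all 4 WT arrays for 9 of 32 genes (28.1%, against 32.8% of all genes) and KO 2 for 12 (37.5%, against 23.8%). KO 3 had them for 25 (78.1%, against 41.6%) and KO 4 for 16 (50%, against 34.3%). KO 3 was the lowest of the 8 arrays for 15 of the 32 genes, against 28.2% of all genes, and KO 4 for 9, against 13.8%. KO 1 was the highest KO array for 21 (65.6%), against 25.8% of all genes. KO 3 is the array with the raised intensity and the marked spots, and the part of those in its low values was not tested. Without KO 3 the median difference of the 35 genes was -0.18, with 28 of 35 below 0.

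Without WT 4 the median difference was -0.15, with 26 of 35 below 0, and the role medians were -0.08 for cyclins, -0.19 for kinases, -0.16 for kinetochore genes, -0.23 for spindle genes, -0.04 for cytokinesis genes, -0.19 for anaphase genes and -0.12 for Foxm1, Mki67 and Top2a. WT 4 was the highest WT array for 35 of 35 genes, so leaving it out moved every difference upward by construction. It brought the difference nearer to 0 by over 1.5 times for 10 of 35 genes (Ccnb1, Ccnf, Cdk1, Aurka, Cenpa, Tpx2, Nusap1, Prc1, Kif23 and Cdc20). For 5 (Ndc80, Hmmr, Anln, Ect2 and Mki67) the difference moved as much farther from 0, and for 2 (Ccnb2 and Espl1) it crossed 0. Leaving out KO 3 brought 6 nearer and 3 farther, and 2 crossed 0. Without WT 3 the median was -0.30. In the other settings that keep all 8 arrays, WT 4 was the highest WT array for 30 to 32 of the 32 genes (32 of 33 with no filter on dim probes), and for 31 with Cy5 alone. In the Cy3 channel, which held the same reference RNA on every array and was quantile normalised, it was highest for 6 of 32.

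Endothelial markers moved with WT 4 as well. All 8 were highest there among the WT arrays, with a list median of 1.05, against -0.16, -0.26 and 0.05 on WT 1 to WT 3 and 0.29 to 0.48 on the KO arrays. The 10 stroma and smooth muscle markers tested were all lowest on WT 3 among the WT arrays, with a median of 0.08 against 0.96 to 1.01 on the others. Over the 4 erythroid markers with values on every array, the median was -0.01, -3.01, 0.29 and -1.14 on WT 1 to WT 4. On the KO arrays it ran from -0.97 to -0.66. Between groups, 13 of 15 macrophage and leukocyte markers had differences below 0, with a median of -0.27, as did 9 of 10 stroma markers, with -0.40, 8 of 9 nephron progenitor markers, with -0.36, and 16 of 21 ureteric bud and collecting duct markers, with -0.23. Of 9 proximal tubule and podocyte markers 7 were below 0, with a median of -0.30, and of the endothelial markers 1 of 8, with a median of 0.22. Of 5 erythroid markers tested 2 were below 0, with a median of 0.02. With 1 array left out, the ureteric bud and collecting duct median lay between -0.31 (without KO 1) and -0.24 (without KO 4). The other medians moved more with single arrays. With 1 array left out they ran from -0.70 (without WT 3) to -0.22 (without KO 1) for stroma, from -0.74 (without WT 3) to -0.068 (without WT 2) for nephron progenitors, and from -0.47 (without WT 2) to -0.12 (without WT 1) for macrophages and leukocytes. Without KO 2 they were -0.69 for stroma and -0.66 for nephron progenitors, without WT 4 the endothelial median was 0.51, and without KO 1 that of proximal tubule and podocytes was 0.039. The part of these cells in the mitotic values was not tested.

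**Figure D4:**
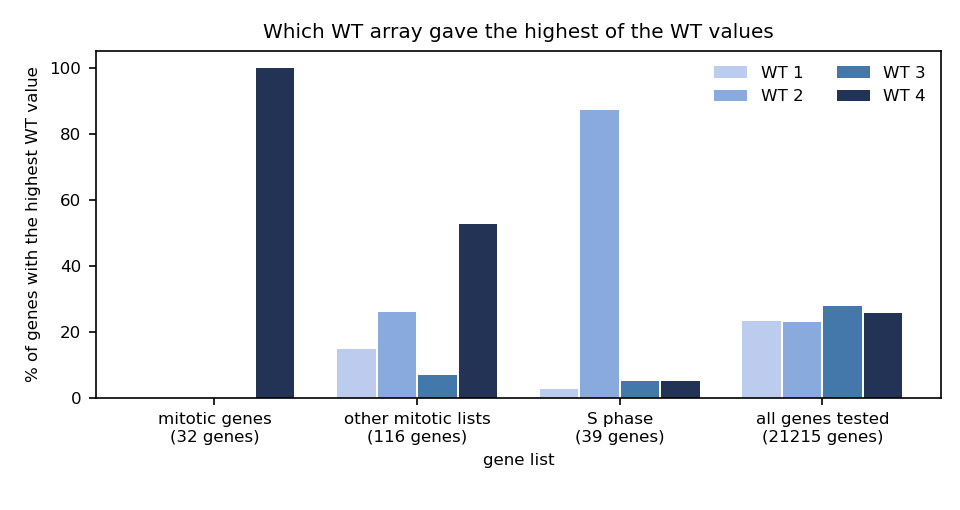
Share of genes (vertical axis, percent) for which each WT array gave the highest of the 4 WT values, for the mitotic genes, the other mitotic lists, S phase genes and all genes tested. WT 4 takes 100% of the 32 mitotic genes, 52.6% of the 116 other mitotic genes and 5.13% of the 39 S phase genes, and 25.8% of all genes.

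Genes of DNA replication and S phase followed another order. WT 2 was the highest WT array for 34 of 39 of them (87.2%) and WT 4 for 2 (5.13%), and the list median was 0.24 on WT 2 and -0.03 on WT 4. Of 42 measured, 39 had a difference below 0, with a median of -0.30. At an unadjusted p under 0.05, 22 were lower and 0 higher, against 13.6% of all genes lower and 10.4% higher. The groups did not overlap for 19 of 39, all lower, against 7.64% of all genes lower and 3.85% higher. As among the 35 mitotic genes, limma called 0 of them over all genes tested (lowest adjusted p = 0.106). Without KO 2 it called 15 of 42 lower and 0 higher, against 11.2% of all genes lower. Mcm5, a subunit of the replicative helicase, had -0.63 ± 0.15, and WT 2 was its highest array, at 0.79.

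**Figure D5:**
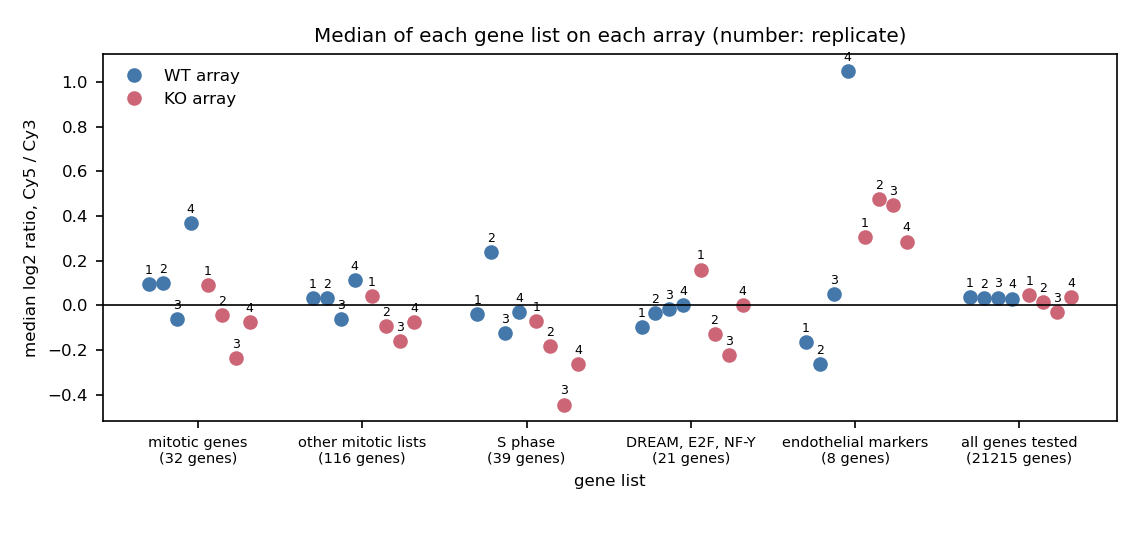
Median log2 ratio (vertical axis) of 5 gene lists and of all genes tested on each array, blue for WT and red for KO, with the replicate number above each point. For mitotic genes WT 4 stands highest at 0.37, for S phase genes WT 2 at 0.24, and for endothelial markers WT 4 at 1.05.

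Other genes of the same machinery, listed by their known functions, numbered 126 measured of 131. Of these 96 were below 0, with a median of -0.13, and 0 were called. At an unadjusted p under 0.05, 34 were lower and 6 higher, against 13.6% and 10.4% of all genes. The same shares stand beside the counts of each list below. Without KO 2, 21 were called lower and 5 higher, against 11.2% and 10% of all genes. WT 4 was their highest WT array for 61 of 116. Among entry regulators 14 of 15 lay below 0, with a median of -0.18, 5 lower and 0 higher at an unadjusted p under 0.05, led by Melk, a kinase of dividing cells, at -0.36 ± 0.09. Centromere and kinetochore genes had 29 of 38 below 0 and a median of -0.18, with 12 lower and 2 higher. Pmf1 and Mad1l1, of the kinetochore and the spindle checkpoint, had -0.86 ± 0.15 and -0.75 ± 0.14 (adjusted p = 0.1 and 0.103), larger than any of the 35.

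Spindle and kinesin genes outside the 35 had 21 of 24 below 0 (median -0.11, 6 lower and 0 higher), with Tubg1, the tubulin that seeds microtubules, at -0.63 ± 0.15. Cytokinesis genes had 9 of 14 below 0 (median -0.13, 4 lower and 0 higher), with Septin9, a filament protein of the cleavage site, at -0.83 ± 0.15. Anaphase-promoting complex subunits had 12 of 16 below 0 (median -0.17, 4 lower and 2 higher), with Cdc27 at -0.53 ± 0.11, or 0.11 as the mean over its probes. Condensin and cohesin genes were nearly balanced, with 11 of 19 below 0 and a median of -0.06. The cohesin subunits Rad21 and Smc3 had 0.41 ± 0.09 and 0.35 ± 0.11, or -0.19 and -0.15 with median centring.

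The DREAM, MuvB, E2F and NF-Y regulators did not lean one way, with 10 of 22 below 0 and a median of 0.01. At an unadjusted p under 0.05, 4 were lower and 2 higher. Mybl2, the MuvB partner that works before Foxm1, read 0.26, 0.58, 0.42 and 0.44 in WT and 0.02, 0.04, -0.35 and 0.01 in KO. Its groups did not overlap, and KO 2 lay with the other KO arrays, at a difference of -0.50 ± 0.11 (adjusted p = 0.106). E2f1, an activator of S phase genes, had -0.59 ± 0.15. Among G1 cyclins, kinases and inhibitors 9 of 14 were below 0, with a median of -0.07, 3 lower and 2 higher at an unadjusted p under 0.05. Cdkn2b, an inhibitor of Cdk4 and Cdk6, read 0.29, -0.25, -0.11 and -0.23 in WT and 1.21, 1.21, 0.21 and 0.81 in KO, with KO 3 the array that overlapped WT 1, and its difference was 0.93 ± 0.22 (adjusted p = 0.112). The inhibitors Cdkn2a and Cdkn1c lay on opposite sides of 0, at 0.46 ± 0.11 (fitted without KO 3) and -0.53 ± 0.16 (adjusted p = 0.112 and 0.121).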

How the data were processed

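Each deposited scanner file gives the Cy5 and Cy3 intensity of every spot. The submitters' processing notes name Agilent Feature Extraction 10.7.3.1 as the authors' software, and the array annotation is for mm9. Median signals and median backgrounds of the 62976 spots were used, since the files hold no mean signals. The deposited log10 ratio, also given in the series value table, was background-subtracted and dye-normalised by the authors' scanner software, per the file headers, and served as an alternative. For this work, normexp (offset 50) corrected the background, and loess within each array, in which control spots had weight 0, normalised the log2 ratio of Cy5 over Cy3. The software was limma 3.58.1, with R 4.3.3, version 1.17.8 of data.table and jsonlite 2.0.0. Marked spots were left out, and the spots of 1 probe were averaged. A probe was tested with Cy5 well above background on at least 4 arrays and values on at least 3 arrays per group, and the brightest probe stood for a gene. Names came from the RefSeq table of GRCm38.p6 (21717 of 37850 matched). The fit was lmFit and eBayes on 4 KO against 4 WT arrays, 2-sided, with Benjamini-Hochberg adjustment over 23343 genes and transcripts at 0.05. WT 3 is both a sample and the common reference and was counted once. It was tested on simulated data. The number of arrays limits the precision.

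Mitotic genes and lists were chosen with earlier results of these data known, so their counts are descriptions. Values on every array are given for the 2 genes with the smallest p and the gene with the highest difference in each role, and for Mki67, Cdk1, Ccnb1, Top2a and Foxm1. Other members have their difference, and up to 3 genes of another list were eligible by smallest p. Array values of Ndc80, and of the dimmer Foxm1 probe, were added after they were seen, as was the order of the WT arrays. The 22 alternatives changed background, normalisation, filter, model or arrays. Figures were drawn with matplotlib 3.10.9.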

Additional observations from a re-analysis of the deposited data

Results flagged for a closer look

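In 83 groups of 4 arrays, each within WT or within KO, the gap of the extreme array to its nearest neighbour was divided by the range of the group. The ratio was set against Dixon's critical value for 4 samples. At that value chance sets apart about 1 in 20 groups, and 2 of 83 were set apart. Ndc80 on the KO arrays had KO 3 at 0.456 and the others between -0.116 and -0.0406, a ratio of 0.868. KO 3 was the array with 7665 marked spots, and its part in this value was not tested. Nuf2 on the WT arrays had WT 4 at 0.457 and the others between 0.171 and 0.206, a ratio of 0.881. WT 4 was also the highest WT array for the other 34 mitotic genes tested.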

How the results depend on the processing

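Over all genes tested limma called 2, against 1 with a normexp offset of 0, with no background subtraction or with the mean over probes, 0 with median centring, with Cy5 alone or with replicate number as a block, 4 with scaling between arrays or no filter, 11 with an intensity trend and robust hyperparameters, 5606 with array weights and 5510 without KO 2 and KO 3. Leaving out 1 array gave 1 to 4947, the highest without KO 2. Mitotic genes called numbered 0, but 3 with array weights (Bub1b, Cdca8 and Kif2c, against 11.2% of all genes lower) and 0 to 5 with 1 array left out. The 5 of 32 that did not overlap became 10 with median centring (against 25% of all genes lower and 0.896% higher), 12 of 35 without KO 2 and KO 3 (23.6% and 23.5%), and 5 to 12 with 1 array left out. Their median difference was -0.59 with median centring, where all genes lay at -0.30, and -0.30 to -0.15 with 1 array left out. By role, median centring gave -0.61 for cyclins, -0.56 for kinases, -0.65 for kinetochore genes, -0.56 for spindle genes, -0.52 for cytokinesis genes, -0.76 for anaphase genes and -0.54 for Foxm1, Mki67 and Top2a, and Cy5 alone gave -0.45 for kinases. The cause of these moves was not tested beyond the shift of all genes.

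The labels do not say that replicate numbers pair samples, though same-numbered WT and KO arrays shared a slide column. Deviations of same-numbered WT and KO arrays correlated at -0.236, 0.051, 0.112 and -0.025, which cannot settle whether samples were paired. With the number as a block, 0 mitotic genes were called and 8 were lower at an unadjusted p under 0.05.

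Of the mitotic genes 9 of 35 changed sign in some setting, and 5 passed the threshold in some. With median centring the difference was -0.15 for Cenpe, -0.24 for Ndc80, -0.16 for Hmmr, -0.31 for Anln, -0.29 for Ect2, -0.54 for Mki67, -0.19 for Rad21, -0.15 for Smc3 and -0.18 for Dot1l. With Cy5 alone it was -0.091 for Cenpf, -0.22 for Anln, -0.15 for Ect2 and -0.044 for Mki67. The scanner ratio gave -0.064 for Ndc80 and -0.013 for Mki67, as did the value table, array weights gave -0.042 for Ndc80, and the mean over probes 0.11 for Cdc27. Without KO 2 and KO 3 Ccnb2 stood at 0.011 and Ndc80 at -0.13. With 1 array left out the range was -0.15 to 0.0093 for Ccnb2, -0.11 to 0.11 for Ndc80, -0.0040 to 0.28 for Hmmr, -0.050 to 0.15 for Anln, -0.031 to 0.12 for Ect2, -0.19 to 0.018 for Espl1 and -0.068 to 0.14 for Mki67.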

Other observations

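The Cy3 channel, which carried 1 reference RNA on all 8 arrays, was quantile normalised between arrays, so that levels are relative to the other spots of an array. The 32 mitotic genes were then centred on their own means and compared between arrays. Their median lay between 0.02 and 0.05 on 7 arrays and at -0.29 on KO 3, which was the lowest KO array for 30 of 32 genes. On the array of WT 3, where both channels held the same RNA, the log2 ratio of the 35 genes tested ran from -0.41 (Aurka) to 0.565 (Ccna2), with a median of -0.05.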
